A study of Drosophila melanogaster and Drosophila arizonae and Drosophila mojavensis with 18 samples.

Results

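The genes of the cytosolic ribosome were followed in whole larvae of *D*. *melanogaster*, in the third instar, after 24 h on 1 of 3 diets. The genes were chosen by name and a minimum level, with earlier results of these data known. The deposited value had to average at least 10 over the 6 libraries. The FlyBase symbol had to start with RpL, RpLP or RpS followed by a digit. Of 92 such symbols in the gene names used here, 87 were matched to the table of 17239 genes by their ID, and 85 had a mean of at least 10. These 85 genes are described here. By symbol, 51 were counted to the large subunit with its stalk and 34 to the small subunit. The 51 include *RpL7-like*, *RpLP0-like* and *RpL24-like*, whose yeast counterparts are assembly factors. *RpL19*, *RpL27A*, *RpL31*, *RpS10b* and *RpS12* were not matched and are not analysed here. *RpS28-like* (mean value 8.19) and *RpS28a* (mean value 1.17) lay under the limit, and the genes just inside it were *RpL10Aa* (57.8) and *RpS10a* (62.0).

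The diets differed in sucrose and dry yeast. HPLS (high protein, low sugar) was made with 8 g sucrose to 32 g yeast, EPS (equal protein and sugar) with 20 g each, and LPHS (low protein, high sugar) with 32 g sucrose to 8 g yeast, in cornmeal and agar. Each diet had 2 libraries, numbered S2 and S1, made from larvae pooled by vial with a poly(A) kit that does not mark the strand. The methods name 2 isofemale strains of the species, but neither they nor the labels say whether the number stands for the strain. Strain, batch and any other difference between S2 and S1 therefore cannot be told apart, and no label says more about how the libraries of one diet were separated, so the p-values measure the spread between these samples.

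A ribosome consists of a small subunit, which reads the mRNA, and a large subunit, which joins the amino acids, and each holds ribosomal RNA and a set of proteins that is nearly the same in all eukaryotes. The proteins are needed in equal numbers, except those of the acidic stalk of the large subunit (*RpLP1* and *RpLP2*, anchored by *RpLP0*), which are present in several copies and recruit the translation factors. In *Drosophila*, the loss of 1 copy of many of these genes gives the slow-growing, thin-bristled Minute flies. Their mRNAs start with a tract of pyrimidines, and in animal cells growth signals through Tor act mostly on the translation of these mRNAs rather than on their number, while *Myc* raises the transcription of genes for ribosome assembly.

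Sequencing depth in the 6 libraries lay between 13219687 and 32807697 fragments in genes, with the deepest library in HPLS S2, so that counting error is small for all but the least abundant of the 85 genes. Values below are normalized counts, that is, deposited values after TMM scaling. The HPLS S2 library stood apart: the larval serum protein genes *Lsp1beta*, *Lsp1gamma* and *Lsp2* were listed at 0 there, where *Lsp1alpha* had 421914. A failed estimate by the authors' software cannot be told apart from a true low for these 3 genes, which had 99308 to 563215 normalized counts in the other libraries. Markers of fat body, gut, body wall muscle, cuticle, neurons and blood cells had values above 0 in every library, except these 3 genes and *Cpr65Az*, which were at 0 in at least 1. The 7 salivary gland markers, which were fixed as a list, summed to 92347 to 304767 normalized counts in the S2 libraries, against 4901 to 44346 in the S1 libraries. Glue genes are switched on late in larval life, and 6 of the 7 markers rose in S2, against 7.81% of all genes tested. In RNA from whole larvae, fewer cells of a type and less RNA per cell cannot be told apart.

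The 85 genes formed a high, even group and a small set of low copies. Per kilobase of annotated exon, 75 genes had a mean level from 5361 to 153383 normalized counts, and 66 of these were within 2-fold of their median of 28955. The other 10 genes lay between 78.5 and 1795 normalized counts per kilobase. The gap between them was seen in the data, and a mean of 2000 normalized counts was then set as the limit between the groups. For 9 of the 10, a partner gene among the 85 had a mean at least 16.1 times higher, and the partner of *RpS10a* was not analysed here.

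**Figure D1:**
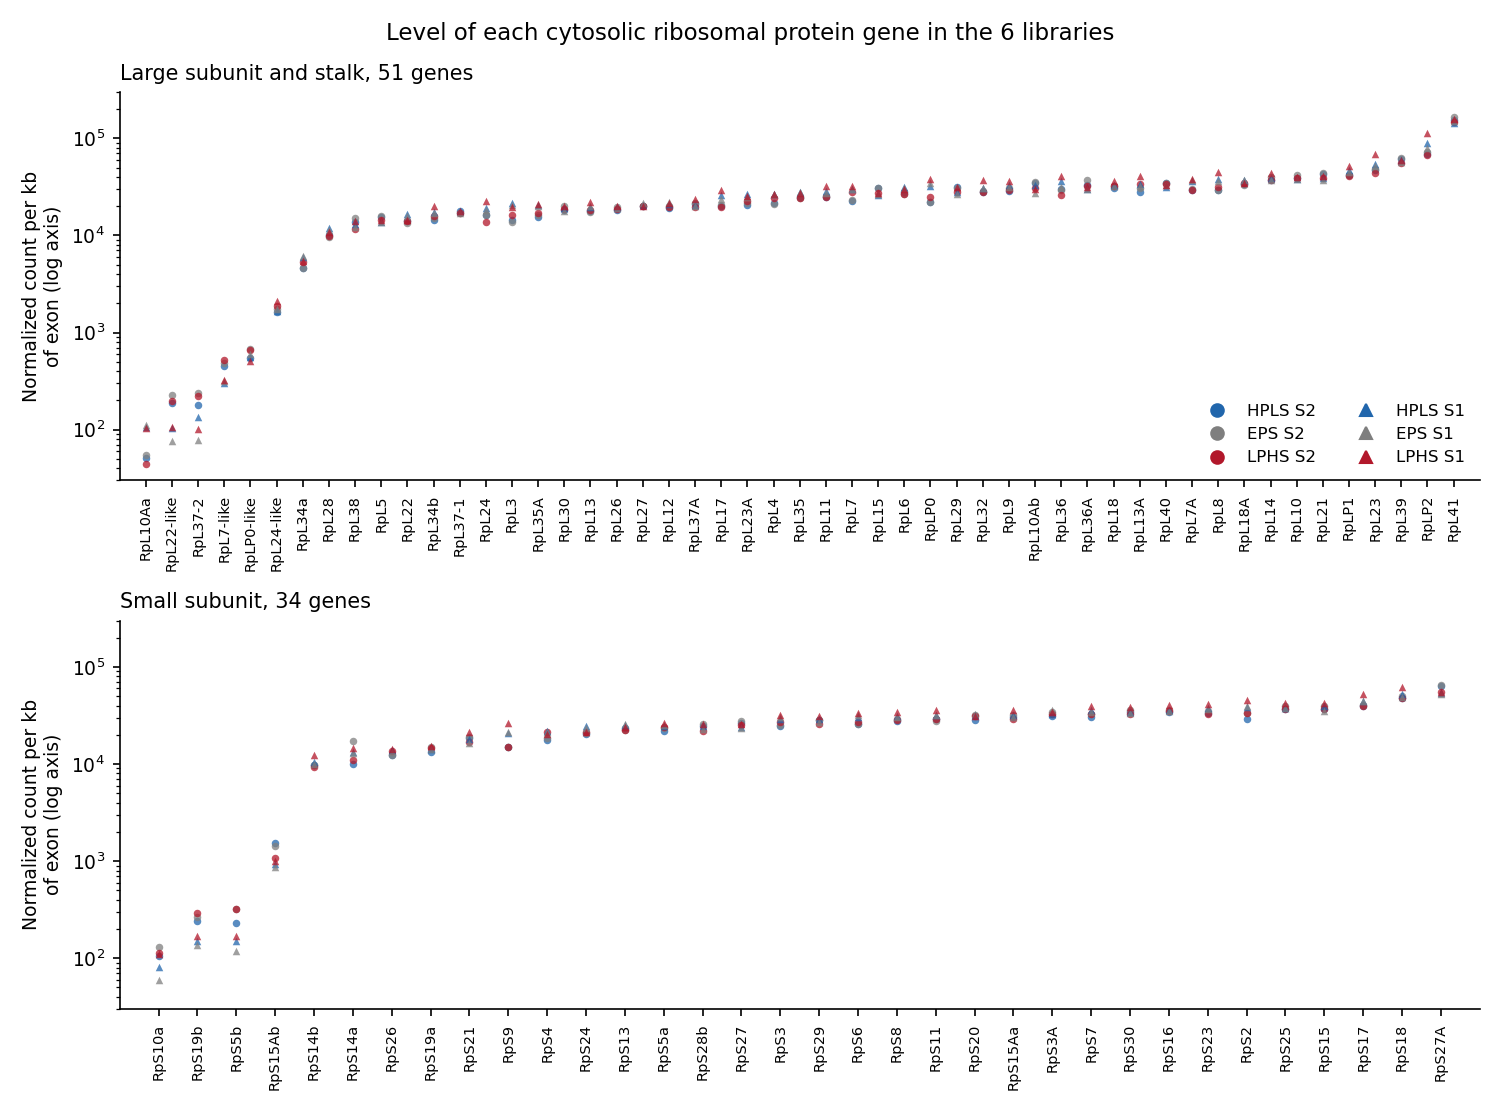
Level of the 85 genes in each library, in normalized counts per kilobase of exon on a log axis, ordered by the mean within the large subunit (top) and the small subunit (bottom). Circles are S2 and triangles S1 libraries, and colours are diets. In each panel a few genes, 6 of the large and 4 of the small subunit, fall below 2000 per kilobase, and the rest lie close together up to *RpL41*.

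The highest level per kilobase was that of *RpL41*, which encodes the shortest protein of the ribosome. It had 49564, 52883 and 46738 normalized counts in HPLS, EPS and LPHS in the S2 libraries, against 46273, 48281 and 50754 in the S1 libraries, and 153383 per kilobase on average. *RpLP2* followed with 82003 per kilobase, then *RpL39* with 59548, *RpS27A* with 57374 and *RpL23* with 52476. *RpS27A* and *RpL40* (33392 per kilobase) encode ubiquitin joined to a ribosomal protein. The stalk partner *RpLP1* had 44842 and the stalk base *RpLP0* 28972 normalized counts per kilobase. These levels rest on the annotated exon length, which ran from 288 to 3835 bases with a median of 916, and a long exon that is seldom used lowers the level.

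The 5 lowest genes per kilobase were *RpL10Aa* (78.5), *RpS10a* (99.9), *RpL22-like* (150.3), *RpL37-2* (158.1) and *RpS19b* (209.0). *RpS5b* (217.4), *RpL7-like* (399.9), *RpLP0-like* (593.5), *RpS15Ab* (1142) and *RpL24-like* (1795) completed the low group. *RpL22-like*, *RpS5b* and *RpS19b* are known for expression in germ cells. The yeast counterparts of *RpL7-like*, *RpLP0-like* and *RpL24-like* are assembly factors of the large subunit.

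Across the 6 libraries most of the abundant genes varied little. The ratio of the highest to the lowest library was under 1.5 in 64 of the 75 abundant genes and in 66 of all 85 (77.6%), against 36.6% of all genes tested. Of the 699 other genes with a mean at or above the lowest of the 75, 31.8% had a ratio under 1.5. This set was chosen after the data were seen, as genes of like abundance. *RpL40* was among the steadiest, with 22636, 23061 and 22208 normalized counts in HPLS, EPS and LPHS in the S2 libraries, against 20844, 21556 and 21728 in the S1 libraries. Its highest library was 1.11 times its lowest. The widest ratios among the abundant genes were those of *RpS9* (1.77), *RpS14a* (1.73), *RpLP2* (1.72) and *RpLP0* (1.71), and among the low copies that of *RpL37-2* (3.03).

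Together the 85 genes held a large share of the deposited values. Their share of the table total was 10.5% in HPLS, 10.3% in EPS and 10.04% in LPHS in the S2 libraries, against 11.4%, 10.7% and 11.9% in the S1 libraries. The S2 shares averaged 10.3% ± 0.213 and the S1 shares 11.3% ± 0.611 (SD, n = 3 each), and the groups did not overlap. The total of HPLS S2 lacks the 3 serum protein genes listed at 0. Without them in any total, a setting chosen after the data were seen, the share was 10.46, 11.07 and 10.8% in HPLS, EPS and LPHS in the S2 libraries, against 12.14, 11.29 and 12.57% in the S1 libraries. For the shares of the whole table, an exact permutation test gave a two-sided p of 0.10, the smallest that 3 libraries against 3 allow. When the 10 other genes with the highest mean were left out of the total, the S2 libraries spanned 11.6 to 12.7% and the S1 libraries 12.6 to 13.99%, and the groups overlapped. By diet the share was 10.9% ± 0.657 in HPLS, 10.5% ± 0.246 in EPS and 10.97% ± 1.32 in LPHS (SD, n = 2 each), and the diets overlapped. Genes of the large subunit held 59.3 to 60.4% of the sum over the 85 genes in the 6 libraries.

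**Figure D2:**
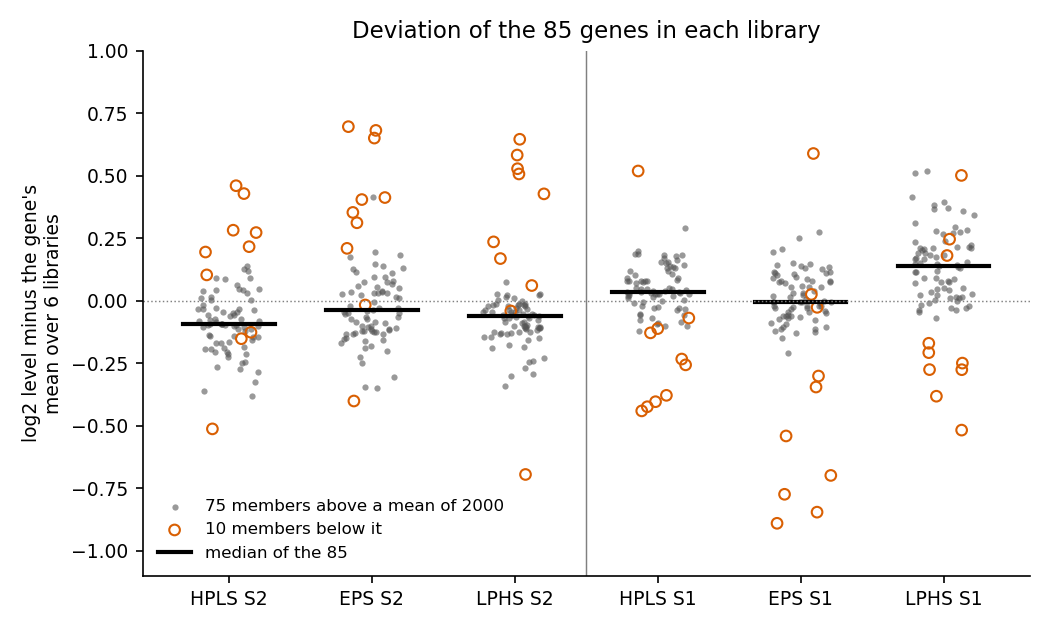
Deviation of each of the 85 genes from its own mean over the 6 libraries, on the log2 scale, by library. Points are the 75 genes above a mean of 2000 normalized counts, open circles the 10 below it, and bars the median of the 85, which ran from -0.09 in HPLS S2 to 0.14 in LPHS S1. Most open circles lie above the points in the S2 libraries and below them in the S1 libraries.

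One library, LPHS S1, stood highest. The median deviation of the 85 genes from their own means was -0.09, -0.04 and -0.06 (log2) in HPLS, EPS and LPHS in the S2 libraries, against 0.03, -0.01 and 0.14 in the S1 libraries. LPHS S1 held the highest value of 45 of the 85 genes (52.9%), against 14.9% of all genes tested. HPLS S2 held the lowest value of 30 genes (35.3%), against 20.2% of all genes tested.

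The first question of the design was whether the diet changed the mRNA of these genes. Limma was run on log2(value + 1), with the 3 diets in the model and Benjamini-Hochberg adjustment over 12324 genes. This fit counts the difference between S2 and S1 as spread within a diet. It called 0 of the 85 genes between any pair of diets and 0 along the grams of sucrose. The background was 0% of all genes tested in each of these 4 comparisons. At an unadjusted p under 0.05 the count in this fit was also 0 of 85 in the 3 pairwise comparisons. The share of all genes was 1.45% in LPHS-HPLS, 0.341% in EPS-HPLS and 0.203% in LPHS-EPS. In the fit with the library number as a block it was again 0 of 85, against 941, 314 and 240 of the 12324 genes. With the library number as a block, limma again called 0 of the 85 genes on every test, and the lowest adjusted p among them was 0.463, for *RpL24-like* in the trend on sucrose (0.739 in LPHS-HPLS). The lowest adjusted p of any gene tested in LPHS-HPLS with the block was 0.113, so no change of any size was called there. The background with the block was 0% for each pair of diets and 0.0487% (6 genes) for the trend on sucrose. For the 75 abundant genes, the 95% intervals of the LPHS-HPLS change with the block all lay between -0.63 and 0.77 on the log2 scale. They reached a median of 0.48 to either side of the change with the block and 0.65 without it.

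The median change of the 85 genes was small in each comparison. It was 0.06 (log2) in LPHS-HPLS, with 63 of 85 genes above 0 (74.1%, against 50.7% of all genes tested), 0.01 in EPS-HPLS with 51 genes above 0, and 0.05 in LPHS-EPS with 57. The median of all genes tested in LPHS-HPLS was 0.00, and that of the 699 other abundant genes 0.12. These comparisons share libraries. Within library numbers, the LPHS-HPLS median was 0.01 in S2 and 0.12 in S1, and the EPS-HPLS median was 0.05 in S2 and -0.04 in S1. In LPHS-HPLS, 35 genes were higher in both S2 and S1 and 8 lower in both, against 27.6% and 26.1% of all genes tested. The LPHS-HPLS median turned to -0.07 without LPHS S1 and to -0.03 without HPLS S2, and was 0.17 without LPHS S2 and 0.12 without HPLS S1.

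**Figure D3:**
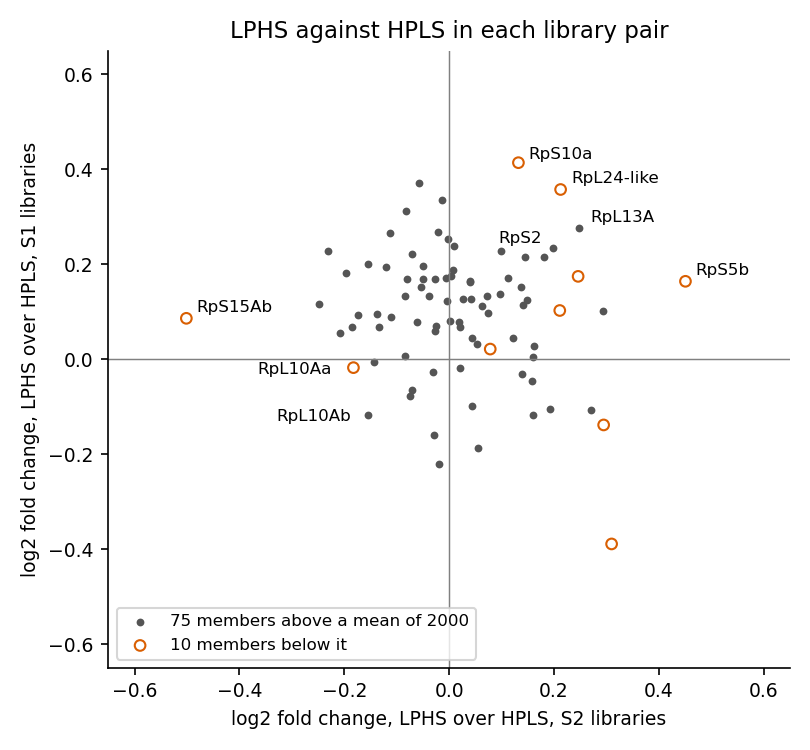
Change of each of the 85 genes between LPHS and HPLS on the log2 scale, in the S2 libraries (horizontal axis) and in the S1 libraries (vertical axis). Points are the 75 genes above a mean of 2000 normalized counts and open circles the 10 below it. The cloud is centred near 0 in S2 (median 0.01) and above 0 in S1 (median 0.12), with no shared slope.

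Across the 85 genes the LPHS-HPLS changes of S2 and S1 showed almost no relation (Pearson's r -0.10, Spearman's rho -0.06), a description across genes, which are not independent replicates. The genes at the ends of the LPHS-HPLS order had intervals that included 0. *RpL24-like* had 1441 normalized counts in LPHS S2 and 1639 in LPHS S1, against 1243 in HPLS S2 and 1279 in HPLS S1. Both LPHS libraries were above both HPLS libraries, and the log2 change was 0.29 (SE 0.17, limma adjusted p = 1.00, or 0.739 with the library number as a block).

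*RpL13A*, a protein of the large subunit, had 30345 and 37101 normalized counts in LPHS S2 and S1, against 25537 and 30643 in HPLS S2 and S1. The diets overlapped although the value was higher on LPHS within each number, and the log2 change was 0.26 (SE 0.27). *RpS2*, near the mRNA channel of the small subunit, had 40060 and 55441 on LPHS, against 34926 and 47097 on HPLS, again higher on LPHS within each number (log2 change 0.22, SE 0.34). The low copies *RpS5b* (0.31, SE 0.57) and *RpS10a* (0.27, SE 0.43) made up the top 5. *RpS5b* had 302.5 and 159.2 normalized counts on LPHS, against 221.0 and 141.9 on HPLS.

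At the other end, *RpS15Ab* had 785.8 and 718.4 normalized counts in LPHS S2 and S1, against 1113 and 676.6 in HPLS S2 and S1. The value was lower on LPHS in S2 and higher in S1, and the log2 change was -0.21 (SE 0.34). *RpL10Ab* had 29750 and 29116 on LPHS, against 33111 and 31594 on HPLS, so that both LPHS libraries were below both HPLS libraries (log2 change -0.14, SE 0.27). The other low changes were those of *RpL22* (-0.12), *RpL10Aa* (-0.10) and *RpL28* (-0.09). Of these 10 genes, the limma adjusted p with the library number as a block was lowest for *RpL24-like*.

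The LPHS-HPLS changes of the 7 landmark genes ran from -0.08 for *RpS27A* to 0.20 for *RpLP0*, close to the named genes at both ends of the order. *RpS6*, the target of S6 kinase in the small subunit, had 32513 and 40198 normalized counts in LPHS S2 and S1, against 30903 and 36652 in HPLS S2 and S1. The log2 change was 0.10, with a 95% interval from -0.37 to 0.58 when the library number was a block. *RpL3*, next to the peptidyl transferase centre, had 36235 and 43964 on LPHS, against 32423 and 47715 on HPLS, a log2 change of 0.02. In the stalk, the LPHS-HPLS log2 change was 0.20 for *RpLP0*, 0.05 for *RpLP1* and 0.16 for *RpLP2*. It was -0.08 for *RpS27A* and 0.02 for *RpL40*.

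The widest difference of an abundant gene on EPS was that of *RpS14a*, and it came from 1 library. *RpS14a* had 8766, 15202 and 9639 normalized counts in HPLS, EPS and LPHS in the S2 libraries, against 11674, 11383 and 12965 in the S1 libraries. The EPS-HPLS log2 change was 0.79 in S2 and -0.04 in S1, and 0.38 in the fit (limma adjusted p = 1.00). Its neighbour *RpS14b* had 5804, 5840 and 5529 in the S2 libraries, against 6318, 5988 and 7368 in the S1 libraries, with no such peak. The pair lies in tandem on the X chromosome (chrX:7933742-7934677 and chrX:7934898-7935792, plus strand, in the Ensembl annotation of Release 6), 220 bases apart, and encodes the same protein. How the authors' mapping divided reads between the copies is not known, so the values of either gene are uncertain.

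The second comparison was S2 against S1 with the diet in the model. By limma, 5 of the 85 genes differed at an adjusted p of at most 0.05 (5.88%), against 15.9% of all genes tested. *RpL22-like*, *RpS5b*, *RpS19b* and *RpL7-like* rose in S2 (the background of genes higher in S2 was 7.81%), and *RpL10Aa* fell (8.07%). All 5 belong to the 10 low copies, and 0 of the 75 abundant genes were called, of which 5 had an unadjusted p under 0.05. At that limit were 12 of all 85 genes, against 36.3% of all genes tested. The count depended on single libraries, as did the share of all genes called, given in brackets. It was 0 without EPS S1 (6.65%), 1 without EPS S2 (8.07%), 3 without HPLS S2 (5.09%) and 3 without HPLS S1 (5.83%). It was 6 without LPHS S2 (27.7%) and 7 without LPHS S1 (26.1%). With the diet left out of the model it was 9 (22.6%). These shares, in either direction, are also the background for the lists below when a library is left out.

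**Figure D4:**
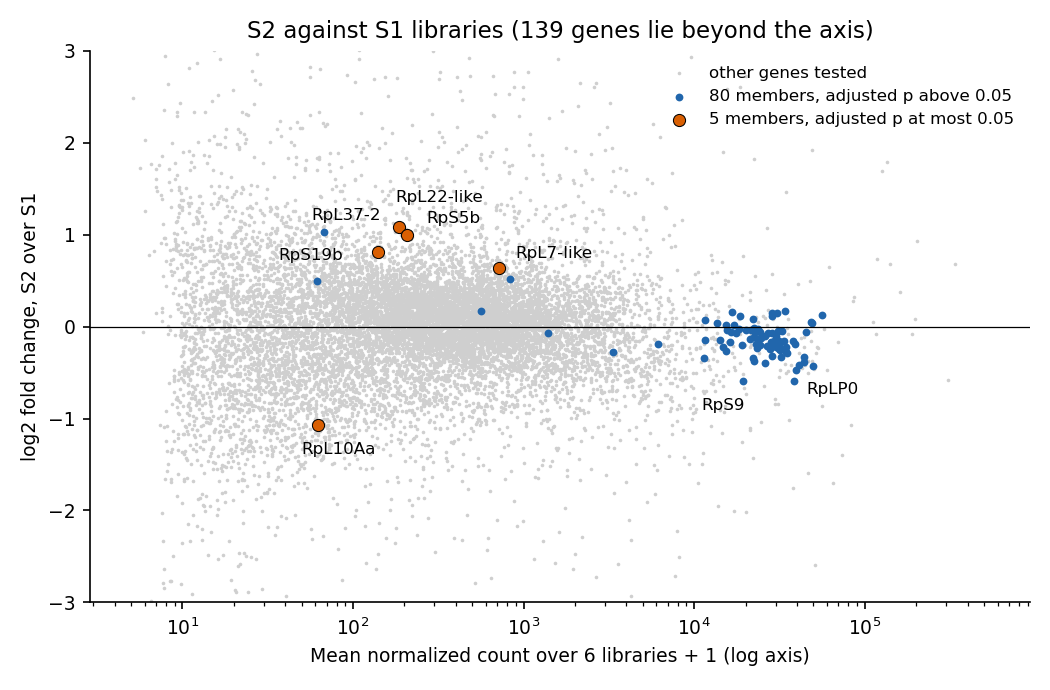
Log2 fold change of S2 over S1 libraries against the mean normalized count (log axis) for the 12324 genes tested, with 139 genes beyond the vertical axis, which ends at 3. Grey points are other genes, blue points the 80 ribosomal protein genes above an adjusted p of 0.05 and orange points the 5 at or below it. The 5 lie among the low copies, and the abundant genes lie mostly just below 0.

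*RpL22-like*, an alternative form of *RpL22* known from the testis, had 231.4, 278.8 and 244.4 normalized counts in HPLS, EPS and LPHS in the S2 libraries, against 129.5, 95.1 and 131.5 in the S1 libraries. All S2 libraries were above all S1 libraries. The mean was 251.5 ± 24.5 in S2 and 118.7 ± 20.5 in S1 (SD, n = 3 each), a log2 change of 1.09 (SE 0.19, limma adjusted p = 0.020). Leaving out EPS S2 or EPS S1 brought its adjusted p to 0.050 and 0.051, both above the threshold.

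*RpS5b*, an alternative form of *RpS5a* known from the female germ line, had 221.0, 303.5 and 302.5 normalized counts in the S2 libraries on HPLS, EPS and LPHS, against 141.9, 112.4 and 159.2 in the S1 libraries. The groups did not overlap, and the log2 change was 0.99 (SE 0.19, limma adjusted p = 0.025). It was lost without EPS S2 (0.069) or EPS S1 (0.068). *RpS19b*, a germ line form of *RpS19a*, had 162.5, 177.0 and 192.9 in the S2 libraries, against 99.2, 91.4 and 112.1 in the S1 libraries. These groups did not overlap either (log2 change 0.81, SE 0.15, limma adjusted p = 0.022). Its adjusted p was 0.106 without HPLS S2, 0.081 without EPS S2, 0.084 without HPLS S1 and 0.080 without EPS S1.

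*RpL7-like* had 812.1, 867.8 and 940.3 normalized counts in HPLS, EPS and LPHS in the S2 libraries, against 537.4, 567.0 and 577.2 in the S1 libraries. Its log2 change was 0.64 (SE 0.11, limma adjusted p = 0.022), and the call was lost in the same 4 cases as that of *RpS19b*, with adjusted p of 0.142, 0.078, 0.130 and 0.077. Its exons overlap those of *CG34164* on the same strand, so the reads of the overlap cannot be told apart. *RpL10Aa*, a minor form of *RpL10Ab*, went the other way, with 39.9, 43.2 and 35.1 in the S2 libraries, against 82.7, 86.8 and 81.7 in the S1 libraries. The groups were far apart at low counts, and the log2 change was -1.07 (SE 0.18, limma adjusted p = 0.020). It was called no more without HPLS S2 (0.081), HPLS S1 (0.080) or EPS S1 (0.057).

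The remaining low copies did not pass the test in the fit with the diet. *RpL37-2* had 74.9, 99.8 and 93.2 normalized counts in the S2 libraries on HPLS, EPS and LPHS, against 56.5, 32.9 and 42.9 in the S1 libraries. The groups did not overlap, and the log2 change was 1.03 (SE 0.26, limma adjusted p = 0.051). It passed with the diet left out of the model (0.021), with a pseudocount of 5 (0.049), without HPLS S2 (0.047) and without HPLS S1 (0.030). *RpS15Ab* had a log2 change of 0.51 (limma adjusted p = 0.075), *RpS10a* 0.50 (0.211), *RpLP0-like* 0.17 (0.403) and *RpL24-like* -0.07 (0.675).

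Some germ line markers also differed between S2 and S1. Of the 12 male germ line markers, 3 fell and 0 rose in S2 (25.0%, against 8.07% of all genes that fell). These were *Mst84Db*, *Mst98Ca* and *Mst98Cb*, genes of late spermatogenesis. The median log2 change of the list was -0.45, with *aly* (0.52), *can* (0.53) and *CycB3* (0.29) above 0 and not called. By diet that median was -0.59 in HPLS, 0.0003 in EPS and -0.67 in LPHS. The list summed to 1888 to 2210 normalized counts in the S2 libraries, against 2400 to 3100 in the S1 libraries, and none of its markers was at 0. The 3 calls were lost without HPLS S2 or without HPLS S1. Of 6 markers of the female or early germ line, *nanos* and *aub* rose and *osk* fell (50.0%, against 15.9% of all genes in either direction), and the list summed to 483.3 to 568.0 in S2 libraries, against 321.1 to 402.4 in S1 libraries. The number of genes that rose in this list was 1 in place of 2 without HPLS S2, EPS S2, HPLS S1 or EPS S1, and 3 without LPHS S2 or LPHS S1. Among its defining markers, *osk* was at 0 in EPS S2, and *vas* was not analysed here. The part of the germ line in the changes of *RpL22-like*, *RpS5b*, *RpS19b* and *RpL10Aa* was not tested.

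Markers of other tissues moved with the library number as well, against 7.81% of all genes that rose and 8.07% that fell. Of 7 fat body markers, *Lsp1alpha* and *Fbp2* rose and 0 fell, and the list summed to 827252 to 1698090 normalized counts in the S2 libraries, against 1197833 to 1483195 in the S1 libraries. Its count was 1 without HPLS S2 or EPS S2 and 0 without EPS S1. Of 8 gut markers, *alphaTry* rose, and *Jon99Ci* and *LManVI* fell, with sums of 162198 to 211221 in S2 and 167117 to 189193 in S1. The gut median of -0.24 turned to just above 0 without HPLS S2 or HPLS S1, and 1 gene fell in place of 2. The structural genes of body wall muscle had 0 of 6 called and a median log2 change of -0.72, with sums of 453586 to 726202 in S2 and 690906 to 853467 in S1. In this list 3 genes fell without LPHS S2 or without LPHS S1, and the median was -0.31 without EPS S2 and -0.29 without EPS S1.

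Of 5 cuticle genes tested, *Lcp1* rose and *Cpr47Eg* fell, with list sums of 589177 to 1123890 in S2 and 480567 to 541869 in S1. The rise of *Lcp1* was lost without EPS S1. Of 5 blood cell markers, *He* and *NimC1* rose and 0 fell, with sums of 8525 to 10606 in S2 and 8999 to 10960 in S1. The blood cell count was 1 without HPLS S2, EPS S2, HPLS S1 or EPS S1, and 1 marker fell without LPHS S2 or LPHS S1. Of 5 neuron markers, *Syt1* alone was called and rose, with sums of 2397 to 3953 in S2 and 2004 to 2123 in S1. It was lost without HPLS S2, EPS S2, HPLS S1 or EPS S1, and 1 marker fell without LPHS S2 or LPHS S1. The part of these tissues in the S2-S1 changes of the 85 genes was not tested.

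The abundant genes leaned lower in S2 without a call. Their median log2 change was -0.15 over the 75 genes, against 0.03 over all genes tested and -0.17 over the 699 other abundant genes. All S2 libraries were below all S1 libraries in 40 of the 75 genes and in 41 of all 85 (48.2%), against 20.2% of all genes tested. They were above in 2 of the 75 and in 8 of the 85 (9.41%), against 23.6% of all genes tested. Among the 699 other abundant genes, 27.3% had all S2 libraries below all S1 libraries. The median over the 85 genes was -0.14, and it lay between -0.17 and -0.09 as each library was left out in turn. By diet it was -0.13 in HPLS, -0.04 in EPS and -0.19 in LPHS.

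*RpS9* had the lowest change of an abundant gene. It had 15404, 15192 and 15268 normalized counts in HPLS, EPS and LPHS in the S2 libraries, against 21312, 21484 and 26910 in the S1 libraries. The 3 S2 values were nearly equal and all below S1, and the log2 change was -0.60 (SE 0.16, limma adjusted p = 0.053). It passed with the diet left out of the model (0.026) and with RLE scaling (0.049). *RpS9* exons overlap an antisense RNA gene, whose reads cannot be told apart from its own without strand.

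The stalk genes followed. *RpLP0*, the base of the stalk, had 29294, 29506 and 33231 normalized counts in the S2 libraries on HPLS, EPS and LPHS, against 43154, 45520 and 50141 in the S1 libraries. The groups did not overlap, and the log2 change was -0.59 (SE 0.16, limma adjusted p = 0.058, and 0.029 with the diet left out). *RpLP2* had 42020, 43529 and 40394 in the S2 libraries, against 53510, 48457 and 69270 in the S1 libraries, a log2 change of -0.43 (SE 0.20, limma adjusted p = 0.183). *RpLP1* had 32121, 31884 and 31293 in the S2 libraries, against 36511, 34808 and 40018 in the S1 libraries, a log2 change of -0.22 (SE 0.16, limma adjusted p = 0.362). In all 3 stalk genes the S2 libraries lay below the S1 libraries.

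*RpL3* completed the lower end, with 32423, 30664 and 36235 normalized counts in HPLS, EPS and LPHS in the S2 libraries, against 47715, 46319 and 43964 in the S1 libraries (log2 change -0.48, SE 0.17, limma adjusted p = 0.106). *RpS6* had 30903, 30909 and 32513 in the S2 libraries, against 36652, 38480 and 40198 in the S1 libraries, and a log2 change of -0.29 (limma adjusted p = 0.240). *RpS27A* lay on the other side of 0, with 37326, 38225 and 32307 in the S2 libraries, against 31598, 31484 and 32851 in the S1 libraries. Its groups overlapped, and its log2 change of 0.17 (limma adjusted p = 0.503) was the highest among the 75 abundant genes.

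The share of the lesser copy was compared between S2 and S1 in 11 pairs, 8 of them 2 genes for a ribosomal protein and 3 a ribosomal protein with the counterpart of an assembly factor. In the 11 pairs, the lesser copy held a higher share of the pair's normalized counts in all S2 libraries than in any S1 library in 8, a lower share in 1, and an overlapping share in 2. For single genes, all S2 libraries were above all S1 libraries in 23.6% of all genes tested and below in 20.2%. The pairs with a higher share include those of *RpL22-like*, *RpS5b*, *RpS19b* and *RpL7-like*, which were called above. All 3 assembly factor pairs and 5 of the other 8 were among those with a higher share. *RpL37-1* is named here as the partner of *RpL37-2*, outside the rule for named genes. A share also moves with the main copy, which leaned lower in S2 in several pairs. *RpL24-like* (S2-S1 log2 change -0.07) and *RpLP0-like* (0.17) were not called themselves. Their partners *RpL24* (-0.38) and *RpLP0* (-0.59) leaned lower in S2, also without a call.

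**Figure D5:**
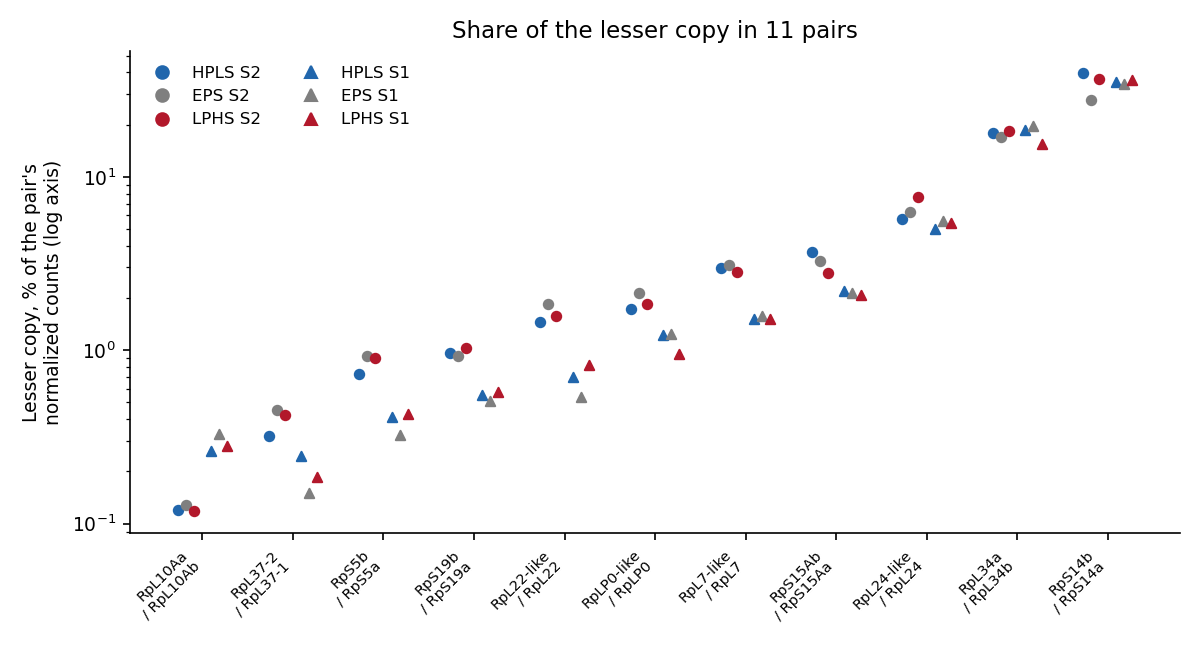
Share of the lesser copy in the normalized counts of 11 pairs, in percent on a log axis, in the 6 libraries. Circles are S2 and triangles S1 libraries, colours are diets, and pairs are ordered by the mean share in S2. The circles lie above the triangles in 8 pairs, below them for *RpL10Aa*, and overlap with them for *RpL34a* and *RpS14b*.

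*RpL22-like* made up 1.46, 1.84 and 1.57% of the *RpL22* pair in HPLS, EPS and LPHS in the S2 libraries, against 0.699, 0.539 and 0.826% in the S1 libraries. *RpS5b* made up 0.731, 0.930 and 0.907% of its pair in the S2 libraries, against 0.414, 0.323 and 0.428% in the S1 libraries. Both minor forms thus stayed under 2% of their pair in every library. *RpS19b* averaged 0.972% ± 0.0535 in S2 and 0.546% ± 0.0343 in S1 (SD, n = 3 each).

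*RpL10Aa* averaged 0.122% ± 0.00514 in S2 and 0.289% ± 0.0343 in S1. *RpL10Ab*, its main copy, had an S2-S1 log2 change of 0.15 (limma adjusted p = 0.536). *RpL37-2* averaged 0.399% ± 0.0679 in S2 and 0.194% ± 0.0483 in S1, *RpLP0-like* 1.91% ± 0.218 and 1.14% ± 0.157 of its pair with *RpLP0*, and *RpS15Ab* 3.26% ± 0.455 and 2.14% ± 0.0604, in S2 and S1 in each case. The pairs with overlapping shares were *RpL34a*, with 17.7% ± 0.638 in S2 and 17.8% ± 2.17 in S1, and *RpS14b*, with 34.7% ± 6.23 in S2 and 35.3% ± 0.893 in S1. Within S2 the share of *RpS14b* was uneven, at 39.84, 27.76 and 36.45% in HPLS, EPS and LPHS.

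Genes that work beside the 85 were followed in lists fixed by name. The ribosomal proteins *sta* and *Rack1*, which the symbol rule does not reach, were not called in any comparison. *sta*, a protein of the small subunit, had 28900, 31217 and 34843 normalized counts in HPLS, EPS and LPHS in the S2 libraries, against 42700, 41712 and 42527 in the S1 libraries, a log2 change of -0.42 (limma adjusted p = 0.128). Of 39 translation factors, 1 fell and 0 rose in S2 (2.56%, against 8.07% of all genes that fell), and their median log2 change was -0.15. That gene was *eIF2Bdelta*, a subunit of the exchange factor of eIF2, with 497.2, 477.4 and 620.3 in the S2 libraries, against 945.3, 1001 and 986.9 in the S1 libraries (log2 change -0.89, limma adjusted p = 0.014). The number of translation factors that fell was 0 without HPLS S2, HPLS S1 or EPS S1, and 3 without LPHS S2 or LPHS S1.

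Of 24 genes for ribosome assembly and RNA polymerase I, 0 were called in S2-S1, against 15.9% of all genes tested. Their median log2 change was -0.02. Without LPHS S2, or without LPHS S1, 1 of them rose and 3 fell. Their LPHS-HPLS median was 0.44 in S2 and -0.13 in S1. Of 13 genes that control the synthesis of ribosomal proteins, 1 rose and 1 fell in S2-S1. This was 15.4%, close to the 15.9% of all genes called in either direction. Between diets 0 of the 13 were called.

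*Myc* had 560.1, 522.7 and 541.8 normalized counts in HPLS, EPS and LPHS in the S2 libraries, against 968.7, 1109 and 830.5 in the S1 libraries. The groups did not overlap (log2 change -0.83, SE 0.14, limma adjusted p = 0.018). *Rheb*, the activator of Tor, had 1237, 1287 and 1030 in the S2 libraries, against 778.5, 788.9 and 847.1 in the S1 libraries (log2 change 0.55, SE 0.14, limma adjusted p = 0.046). Both calls were lost without HPLS S2, EPS S2, HPLS S1 or EPS S1, and with LPHS S2 or LPHS S1 left out 2 genes of the list rose and 2 fell.

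The mitochondrial ribosomal proteins, which build the separate ribosome of that organelle, gave a point of comparison. Of 71 genes, 15 fell and 0 rose in S2 (21.1%, against 8.07% of all genes that fell), with a median log2 change of -0.37. Their sum was 23810 to 33993 normalized counts in the S2 libraries, against 33455 to 39463 in the S1 libraries. The number that fell was 0 without HPLS S2, 1 without EPS S2, HPLS S1 or EPS S1, 35 without LPHS S2 and 37 without LPHS S1. Among all genes tested, 995 fell in the main fit. That number was 304 without HPLS S2, 626 without EPS S2, 312 without HPLS S1 and 475 without EPS S1. It was 1691 without LPHS S2 and 1688 without LPHS S1. In LPHS-HPLS, the cytosolic genes had 63 of 85 above 0 and a median of 0.06. Of the 71 mitochondrial genes 0 were called and all 71 lay above 0, with a median of 0.33, or 0.49 in S2 and 0.16 in S1. The difference between the groups of genes was not tested.

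The 85 genes are spread over the genome, with 17 on chromosome arm 2L, 19 on 2R, 13 on 3L, 22 on 3R, 1 on chromosome 4 (*RpS3A*, named for its place) and 13 on X. Exons of 29 genes overlap those of another annotated gene, 9 on the same strand and 23 on the other strand. *RpL12* (chr2R:24060378-24061860, plus strand) and *RpL39* (chr2R:24061853-24062431, minus strand) overlap at their 3' ends. *RpL24-like* and *RpLP0-like* overlap *Dtd* and *Jra* on the other strand. Reads in these overlaps cannot be told apart without strand. Across the 75 abundant genes, the S2-S1 change had a Spearman's rho of -0.25 with exon length and of -0.18 with the mean normalized count, a description across genes that share libraries and depth.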

How the data were processed

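The authors mapped read pairs of 100 bases with TopHat2 to FlyBase release 6.04 and ran cuffdiff2 with its defaults. The deposited table holds 1 signal value for each gene in each library, which is a fragment count multiplied by 1 step per library (0.639 to 1.284), to within 0.02 steps, in 96.7 to 97.3% of values above 0 and below 1000, so it was not tested as counts. The planned limma fit was used. Values were divided by TMM factors, genes were kept by a minimum count of 10, and log2(value + 1) was tested by limma (version 3.58.1, R 4.3.3) with a variance trend and an adjusted p of at most 0.05 as the threshold. On simulated data with large changes in a few genes, the measured difference between S2 and S1 and a noise level set by hand, the diet fit without the library number as a block recovered none of the changed genes. The fit with the block recovered most of them, with some false calls. The pseudocount understates changes of low genes.

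Gene positions, exon lengths and names came from Ensembl release 115 and matching tables, which gave symbols for 16939 of 17239 genes. Python 3.11.15 made tables and figures. Samples with the same number deviated together (correlations across genes of 0.708 for EPS and HPLS, 0.588 for LPHS and HPLS and 0.548 for LPHS and EPS), so the numbers pair the samples. The pairing comes from the data and the labels do not explain it.

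Named genes were those called in a diet comparison (0), the 5 highest and 5 lowest changes in LPHS-HPLS and S2-S1, duplicated pairs, the 5 highest and 5 lowest levels per kilobase and 7 landmarks. Other genes named were seen in the data first. The genes and lists were chosen with earlier results of these data known. The libraries of the other species were not analysed here.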

Additional observations from a re-analysis of the deposited data

How the results depend on the processing

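The count of 0 of 85 genes held in LPHS-HPLS, EPS-HPLS, LPHS-EPS and the sucrose trend under each of the 12 alternatives run, with the library number as a replicate block (0 genes) among them. All of these alternatives but the block used the diet fit without the library number. On simulated data that fit recovered none of the changed genes. Its count of 0 therefore cannot show that the diet had no effect. In S2-S1 the count of 5 became 9 with the diet left out of the model (22.6% of all genes tested). It ran from 0 to 7 as each library was left out, while the share of all genes ran from 5.09 to 27.7%. The median LPHS-HPLS change ran from -0.073 to 0.17, that of EPS-HPLS from -0.081 to 0.066, that of LPHS-EPS from -0.066 to 0.15 and that of S2-S1 from -0.17 to -0.09 as each library was left out. The replicate block changed no call among the 85 genes. In the trend on sucrose it raised the count over all genes tested from 0 to 6. With 1 library of each number in each diet, the block cannot move the medians. Without the 10 other genes with the highest mean, the share was 11.6, 12.7 and 12.1% in HPLS, EPS and LPHS in S2, against 13.7, 12.6 and 13.99% in S1. Without *Lsp1beta*, *Lsp1gamma* and *Lsp2* in the total, chosen after seeing the data, it was 10.46, 11.07 and 10.8% in S2, against 12.14, 11.29 and 12.57% in S1.

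Single genes turned in LPHS-HPLS only as libraries were left out: *RpS15Ab* (-0.57 to 0.12), *RpL10Aa* (-0.72 to 0.50), *RpL28* (-0.26 to 0.039), *RpS5b* (-0.15 to 0.75) and *RpS2* (-0.038 to 0.45). The cause was not tested. The tests on counts by edgeR and DESeq2 were not run, since not all of the deposited values came out as whole fragments. With the block, the LPHS-HPLS interval reached a median of 0.51 to either side for the low copies and 0.48 for the abundant genes.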
